A study of Mus musculus with 6 samples.

Results

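PPARγ and the genes of fatty acid uptake were examined in mouse bone marrow macrophages on their way to osteoclasts, the multinucleate cells that resorb bone. The set holds 10 genes chosen by name, with earlier results of these data known. It includes the nuclear receptor gene Pparg, the fatty acid importer Cd36, the fatty acid chaperones Fabp4 and Fabp5, and the lipase Lpl. The others are the lipid droplet coat gene Plin2, the desaturases Scd1 and Scd2, and the scavenger receptors Msr1 and Olr1. All 10 are among the 26699 genes in the count tables, and all 10 were among the 16843 genes that passed the filter on low counts. The genotypes compared were 2, each with 3 libraries. The control cells came from Slc11a2flox/flox mice, and the conditional knockout cells (cKO) from LysmCre-Slc11a2flox/flox mice, in which Cre is driven by the promoter of the myeloid lysozyme gene. Slc11a2 encodes the iron importer DMT1. Both genotypes carried the floxed alleles, came from mice 8 weeks old, were expanded in 10 ng/mL M-CSF and then received 30 ng/mL M-CSF and 50 ng/mL RANKL for 48 hours. The control has no Cre, so an effect of Cre itself and one of the deletion cannot be told apart. The labels do not say that the 3 libraries of a genotype are separate mice or cultures, and the p-values cover the spread between libraries only, which may be technical.

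PPARγ is a nuclear receptor that binds fatty acids and their derivatives. It pairs with an RXR receptor on DNA and raises the transcription of genes for fatty acid import, transport and storage. In macrophages its classical targets include Cd36 and Fabp4. Lipoprotein lipase frees fatty acids from triglyceride at the cell surface, CD36 takes them in, the FABP proteins carry them through the cytosol, and stearoyl-CoA desaturases make monounsaturated fatty acids from saturated ones.

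Library totals ranged from 49720701 to 57797282 counts. Levels are given as CPM, which puts each library on the same total after TMM scaling, and 1 read was worth 0.0174 to 0.0198 CPM. Slc11a2 stood at 118, 110 and 118 CPM in the control libraries and at 78.3, 82.8 and 87.4 CPM in the cKO libraries (edgeR log2 fold change -0.48 ± 0.06 (SE), adjusted p = 0.00219). The targeted transcript was therefore lower in every cKO library, and well above 0 in all of them. Lyz2, the gene whose promoter drives Cre, fell by 1.14 on the log2 scale (SE 0.08, adjusted p = 9.39e-06). A gene was called at a Benjamini-Hochberg adjusted p below 0.05 over all genes tested, which gave 229 genes higher and 178 lower in cKO. Among the markers of the labelled cells, the macrophage list summed to 22556 to 25930 CPM in control and 14137 to 14536 CPM in cKO. Lyz2 is a member of that list and fell from a mean of 17105 CPM to 7783 CPM. Over the 7 other macrophage markers, the mean log2 level relative to the control mean was 0.023, 0.022 and -0.046 in control. In cKO it was 0.056, 0.052 and 0. The osteoclast list summed to 11787 to 15309 CPM in control and 8535 to 12212 CPM in cKO.

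Of the 10 genes, 5 rose in cKO and none fell. Fabp4, Lpl, Pparg, Cd36 and Scd2 were called higher by edgeR, beside 1.36% of all genes tested that were called higher and 1.06% called lower. The rises were 1.38-fold to 1.62-fold. The other 5 genes, Fabp5, Plin2, Scd1, Msr1 and Olr1, did not pass the test. The median log2 fold change of the 10 genes was 0.37, beside 0.001 over all genes tested, and 9 of the 10 differences were positive. In the same 5 genes that were called, all 3 cKO libraries lay above all 3 control libraries, an arrangement found for 11.1% of all genes tested. No member had all cKO libraries below all control libraries, which held for 11.4% of all genes. Because the set was chosen with earlier results of these data known, these shares describe it and are no test of it.

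**Figure D1:**
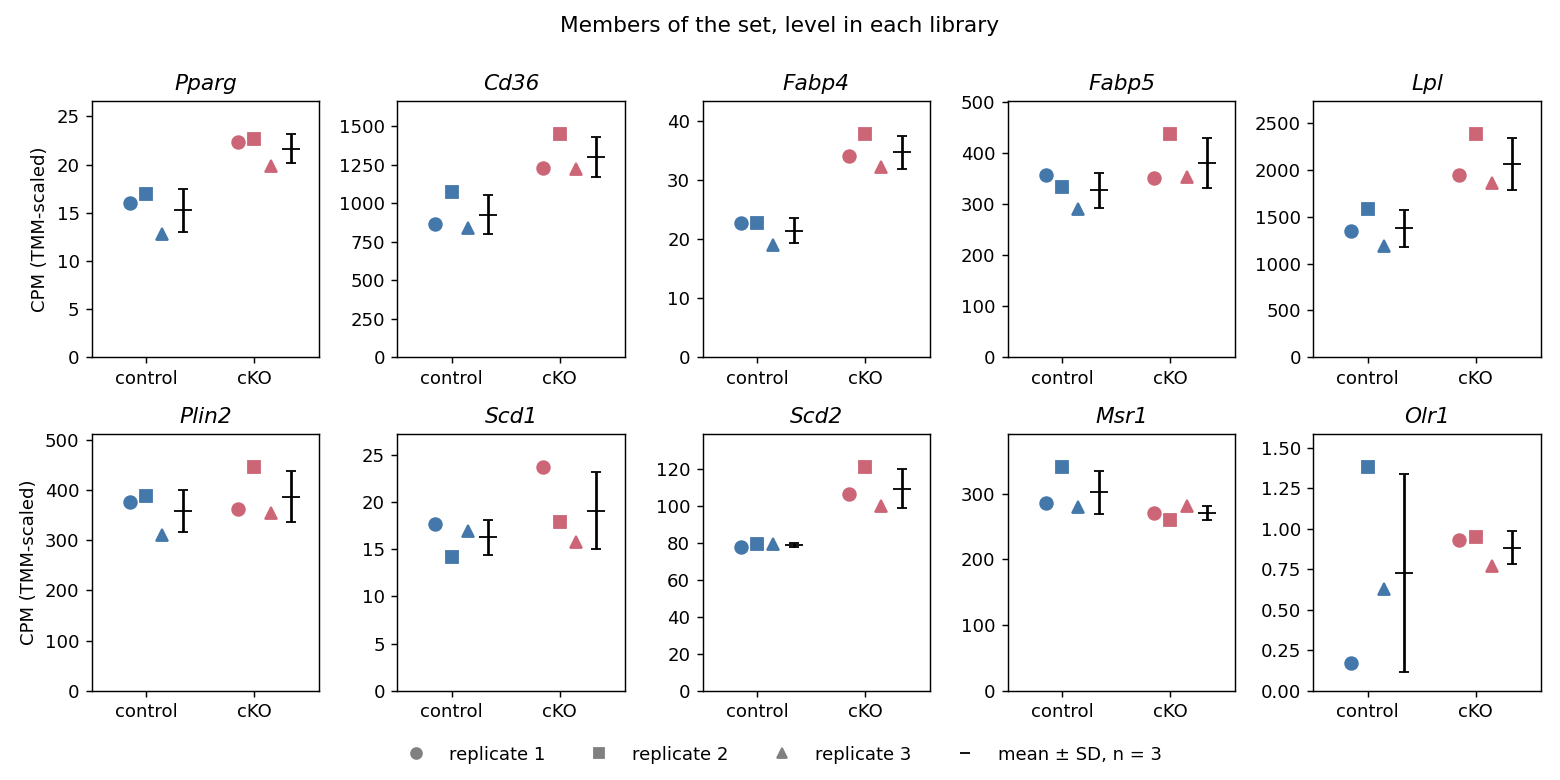
Each panel plots the level of 1 gene in CPM after TMM scaling for the control libraries (blue) and cKO libraries (red), with marker shapes for replicate numbers and black bars for mean ± SD (n = 3). In the panels of Pparg, Cd36, Fabp4, Lpl and Scd2 the red points lie above every blue point, and in the other 5 panels the genotypes overlap.

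Pparg (ENSMUSG00000000440, chr6:115360951-115490399, plus strand, mm10) encodes the receptor itself. Its level was 16.0, 17.0 and 12.8 CPM in the control libraries and 22.4, 22.7 and 19.9 CPM in the cKO libraries. The genotypes did not overlap, and control replicate 3 was the lowest of the 6. The means were 15.2 ± 2.20 and 21.6 ± 1.53 CPM (SD, n = 3 each), a 1.42-fold rise (log2 0.51 ± 0.12 SE, 95% interval 0.26 to 0.76, edgeR adjusted p = 0.0415). The counts behind these levels were 732 to 973 in control and 1060 to 1266 in cKO. Neither of the other PPAR genes was called. Ppard, the more widely expressed receptor, stood at 54.7, 52.6 and 51.8 CPM in control and 64.2, 55.8 and 55.6 CPM in cKO, and Ppara at or below 0.349 CPM in every library. Of 16 other PPAR genes, RXR genes and coregulators listed, 14 were tested and 0 were called in either direction. Among all genes tested, 1.36% were called higher and 1.06% lower, so 0 calls in so short a list says little. The smallest p-values belonged to the acetyltransferase gene Crebbp (log2 0.21 ± 0.07 SE, adjusted p = 0.127) and the corepressor gene Ncor1 (0.13 ± 0.06, adjusted p = 0.31).

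Promoter sequence from RefSeq (GRCm38.p6) was at hand for Pparg, which has 3 start sites there, Cd36, Plin2 and Olr1. The 250 bases before each start were searched on both strands for AGGTCANAGGTCA, the direct repeat of AGGTCA spaced by 1 base that PPAR and RXR pairs bind, allowing 2 mismatches over its 12 fixed bases. Of 32851 mouse promoter windows of this length, 3.24% held such a match. The windows of Cd36 and Plin2 held 1 each, and the 3 windows of Pparg and that of Olr1 held none. The pair is printed because Cd36 rose while Plin2, another gene with such a match, was not called. Each sequence runs 5′ to 3′ along the gene's strand and ends at the base before the start, with the matching letters in capitals:
Cd36, chr5:17835897-17836146, minus strand: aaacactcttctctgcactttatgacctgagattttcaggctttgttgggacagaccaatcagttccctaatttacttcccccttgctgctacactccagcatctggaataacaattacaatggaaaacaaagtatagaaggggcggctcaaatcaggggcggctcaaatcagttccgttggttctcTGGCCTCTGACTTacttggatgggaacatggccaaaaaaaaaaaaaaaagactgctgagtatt
Plin2, chr4:86670060-86670309, minus strand: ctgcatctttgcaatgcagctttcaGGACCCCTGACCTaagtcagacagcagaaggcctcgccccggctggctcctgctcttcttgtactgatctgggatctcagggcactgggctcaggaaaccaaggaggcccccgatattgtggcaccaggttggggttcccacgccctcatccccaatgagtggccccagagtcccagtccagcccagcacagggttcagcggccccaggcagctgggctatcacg
The match lies 63 to 51 bases before the start in Cd36 and 225 to 213 bases before it in Plin2, and each has 2 mismatches. The Cd36 window lies inside the interval given for the gene in the count tables. The sequence after this Cd36 start was not found in any annotated Cd36 transcript, whereas that after the Plin2 start matched a Plin2 transcript. The place of the Cd36 match relative to a start in use is therefore uncertain. A match of letters describes the window and is no measurement of binding.

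Cd36 (ENSMUSG00000002944, chr5:17781690-17888801, minus strand) encodes the membrane protein that imports long-chain fatty acids and oxidised lipoprotein. Its level was 866, 1072 and 839 CPM in control and 1229.8, 1449.9 and 1222 CPM in cKO. Control replicate 2 was the highest control, and it still lay below all 3 cKO libraries. The rise was 1.40-fold (926 ± 127 to 1301 ± 129 CPM, log2 0.49 ± 0.10 SE, 95% interval 0.27 to 0.71, adjusted p = 0.037). Lpl (ENSMUSG00000015568, chr8:68880491-68906934, plus strand), the lipase, was measured at 1348, 1588 and 1193 CPM in control and at 1945, 2384 and 1864 CPM in cKO. The order of the libraries was that of Cd36, with replicate 2 the highest of each genotype and replicate 3 the lowest. Lpl rose 1.5-fold (1376 ± 199 to 2064 ± 279.8 CPM, log2 0.58 ± 0.12 SE, 95% interval 0.31 to 0.86, adjusted p = 0.0446). The FPKM ratio of Lpl to Cd36 was 0.533, 0.507 and 0.487 in the control libraries and 0.542, 0.563 and 0.522 in the cKO libraries, and cKO replicate 3 lay between the controls.

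Other genes of fatty acid import, lipoprotein uptake and activation went both ways. Of 33 listed genes, 27 were tested, 2 were called higher and 1 lower, beside 1.36% and 1.06% of all genes. Of the 27 differences, 15 were positive and 12 negative, with a median log2 fold change of 0.03. The summed level of the list was 5568 to 5959 CPM in control and 6518 to 6614 CPM in cKO. Slc27a6, a fatty acid transport protein, rose from 5.97 to 10.7 CPM (log2 0.83 ± 0.15 SE, adjusted p = 0.0136). Lrp1, an endocytic receptor for lipoprotein remnants, rose from 2609 to 3253 CPM (0.32 ± 0.06, adjusted p = 0.0211). Cav1, the caveolar coat protein, fell from 148 to 113 CPM (-0.38 ± 0.06, adjusted p = 0.00565). The call of Slc27a6 was lost without control replicate 2 (adjusted p = 0.0605), control replicate 3 (0.0767) or cKO replicate 1 (0.121), and that of Cav1 without cKO replicate 1 (0.0598). The call of Lrp1 was lost without any of the 3 control replicates (0.0771, 0.0632 and 0.0977) or cKO replicate 1 (0.144), and when a trend with gene length was removed (0.0723).

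Fabp4 (ENSMUSG00000062515, chr3:10204088-10208576, minus strand), the chaperone also called aP2, had the largest fold change of the 10 genes. It was measured at 22.7, 22.7 and 18.9 CPM in control and at 34.0, 37.8 and 32.3 CPM in cKO. The lowest cKO library was above the highest control. Fabp4 rose 1.62-fold (21.5 ± 2.19 to 34.7 ± 2.82 CPM, log2 0.69 ± 0.10 SE, 95% interval 0.49 to 0.90, adjusted p = 0.00358). Fabp5 (ENSMUSG00000027533, chr3:10012548-10016607, plus strand), the epidermal-type paralog on the same chromosome, lies 187480 bases from Fabp4. Its level was 357, 334 and 291 CPM in control and 351, 438 and 354 CPM in cKO. Only cKO replicate 2 lay above every control library. The difference in Fabp5 did not pass the test (327 ± 33.6 and 381 ± 49.5 CPM, log2 0.22 ± 0.10 SE, 95% interval -0.005 to 0.44, adjusted p = 0.302). The FPKM ratio of Fabp5 to Fabp4 was 19.8, 18.5 and 19.3 in the control libraries and 13.0, 14.6 and 13.8 in the cKO libraries, without overlap. Of the transcript sequence of Fabp5, 5.48% in stretches of 50 bases also occurs in other genes, among them the model Gm6166, so some of its reads could have been assigned elsewhere. No such stretch was found for Fabp4, Pparg, Cd36 or Msr1.

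Among further genes known as PPAR targets, 20 of 23 listed were tested. Of these, 2 were higher and 1 lower, beside 1.36% and 1.06% of all genes tested. Their differences were 10 positive and 10 negative, with a median log2 fold change of -0.025. In Tgm2, which was called, and in Ucp2, Acsl1, Slc25a20, Acadl, Acadvl, Hadha and Acaa2, which were not, all cKO libraries lay below all controls. These are a larger share of the 20 than the 11.4% of all genes with that arrangement. In Abcg1 and Abca1, which were called, and in Ucp3 and Fads2, which were not, all cKO libraries lay above all controls. These too are a larger share of the 20 than the 11.1% of all genes. Because the list was chosen with earlier results known, these shares only describe it. Abcg1, a cholesterol exporter, rose from 133 ± 5.66 to 185 ± 9.29 CPM (log2 0.47 ± 0.06 SE, adjusted p = 0.00219). Abca1, the exporter that loads cholesterol onto apolipoproteins, rose from 496 to 607 CPM (0.29 ± 0.06, adjusted p = 0.029). Tgm2, a transglutaminase, fell from 137 to 114 CPM (-0.27 ± 0.06, adjusted p = 0.0402). Abcg1 kept its call whichever library was left out. The call of Abca1 was lost without control replicate 1 (0.11), control replicate 3 (0.121), cKO replicate 1 (0.161) or cKO replicate 2 (0.0553). The call of Tgm2 was lost without any of the 3 controls (0.128, 0.0694 and 0.157), cKO replicate 1 (0.241) or cKO replicate 2 (0.0785).

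Scd2 (ENSMUSG00000025203, chr19:44293674-44306864, plus strand) encodes a stearoyl-CoA desaturase. Its control values were the tightest of the set, at 78.0, 79.7 and 79.7 CPM, and its cKO values were 107, 121 and 100.4 CPM. All 3 cKO libraries lay well clear of the controls. Scd2 rose 1.38-fold (79.1 ± 0.947 to 109 ± 10.6 CPM, log2 0.47 ± 0.07 SE, 95% interval 0.32 to 0.62, adjusted p = 0.00584). Scd1 (ENSMUSG00000037071, chr19:44394455-44407709, minus strand), its paralog 87590 bases away, was measured at 17.7, 14.2 and 16.9 CPM in control and at 23.7, 17.9 and 15.8 CPM in cKO. The genotypes overlapped, since cKO replicate 3 was below control replicates 1 and 3. Scd1 was not called (16.3 ± 1.86 and 19.1 ± 4.09 CPM, log2 0.23 ± 0.15 SE, 95% interval -0.09 to 0.56, adjusted p = 0.461). The interval of Scd1 includes the fold change of Scd2, and the difference between these paralogs was not tested. The FPKM ratio of Scd2 to Scd1 was 3.955, 5.03 and 4.21 in the control libraries. In the cKO libraries it was 4.04, 6.07 and 5.70, and cKO replicate 1 lay between the controls. Stretches of 50 bases shared with other genes made up 4.56% of Scd1 and 3.97% of Scd2, and 145 were shared between the pair. The rest of the desaturase family was nearly silent: Scd3 did not exceed 0.0961 CPM and Scd4 did not exceed 0.338 CPM in any library.

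Fatty acid synthesis and desaturation genes had 24 of 30 tested, with a median log2 fold change of 0.032. Of these, 1 was higher and 1 lower, beside 1.36% and 1.06% of all genes tested. Fasn, the fatty acid synthase, rose from 103 to 127 CPM (0.30 ± 0.07 SE, adjusted p = 0.0323). Me1, the malic enzyme that supplies NADPH, fell from 47.8 to 37.7 CPM (-0.34 ± 0.07, adjusted p = 0.0231). Srebf1, whose product activates lipid synthesis genes, stood at 60.1 to 67.5 CPM in control and 64.6 to 68.0 CPM in cKO. The call of Fasn was lost without any of the 3 controls (0.102, 0.132 and 0.109), cKO replicate 1 (0.208) or cKO replicate 2 (0.059), and with the length trend removed (0.0692). The call of Me1 was lost without any of the 3 controls (0.0768, 0.0725 and 0.0965) or cKO replicate 1 (0.147).

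Plin2 (ENSMUSG00000028494, chr4:86648386-86670060, minus strand) encodes the protein that coats lipid droplets in most cells. Its level was 376, 389 and 311 CPM in control and 362, 446 and 355 CPM in cKO. In cKO, replicates 1 and 3 lay between the lowest and the highest control. The difference was small beside the spread (359 ± 41.8 and 387 ± 50.4 CPM, log2 0.11 ± 0.11 SE, 95% interval -0.13 to 0.35, adjusted p = 0.658). Of 29 listed genes of lipid droplets and triglyceride turnover, 22 were tested and 0 were called, with a median log2 fold change of 0.016. Among all genes tested, 1.36% were called higher and 1.06% lower, so few calls would be found in a list of this length. The nearest were Soat1, which esterifies cholesterol (0.20 ± 0.06 SE, adjusted p = 0.0889), and Lpin1, a phosphatidate phosphatase (0.23 ± 0.07, adjusted p = 0.108).

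Msr1 (ENSMUSG00000025044, chr8:39581685-39642673, minus strand), the class A scavenger receptor, was the only member with a negative difference. It was measured at 286, 340 and 280.5 CPM in control and at 271, 260 and 281 CPM in cKO. Replicate 3 was nearly the same in both genotypes. Msr1 was not called (302 ± 33.1 and 271 ± 10.6 CPM, log2 -0.16 ± 0.08 SE, 95% interval -0.32 to 0.005, adjusted p = 0.306). The FPKM ratio of Cd36 to Msr1 was 5.36, 5.57 and 5.29 in the control libraries and 8.01, 9.87 and 7.69 in the cKO libraries, without overlap. This ratio sets a gene called higher against the only negative member, so it restates their differences. Olr1 (ENSMUSG00000030162, chr6:129485244-129507165, minus strand), the lectin-like receptor for oxidised LDL, was barely detected. It had 9, 79 and 36 reads in control and 47, 53 and 41 in cKO, or 0.173, 1.38 and 0.628 CPM against 0.933, 0.949 and 0.769 CPM. The controls spanned the cKO values on both sides, and the difference did not pass the test (log2 0.28 ± 0.57 SE, 95% interval -0.97 to 1.52, adjusted p = 0.849).

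Of 17 other scavenger receptors listed, 16 were tested, with a median log2 fold change of 0.12. Of these, 1 was higher and 0 were lower, beside 1.36% and 1.06% of all genes tested. Scarb1, the HDL receptor, rose from 86.0 to 103 CPM (0.26 ± 0.06 SE, adjusted p = 0.0361). Its call was lost without any of the 3 controls (0.0586, 0.132 and 0.13), cKO replicate 1 (0.181) or cKO replicate 2 (0.0646), and with the length trend removed (0.0547). Genes next to a member on the chromosome or of the same family were also listed. Of these, 6 of 17 were tested, and 1 was called higher and 0 lower, beside 1.36% and 1.06% of all genes tested. The called gene was Clec7a, the β-glucan receptor Dectin-1 encoded in the same lectin cluster as Olr1. Clec7a rose from 384 to 571 CPM (0.57 ± 0.08, adjusted p = 0.00565), a call lost without control replicate 1 (0.0533) or cKO replicate 1 (0.0601).

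**Figure D2:**
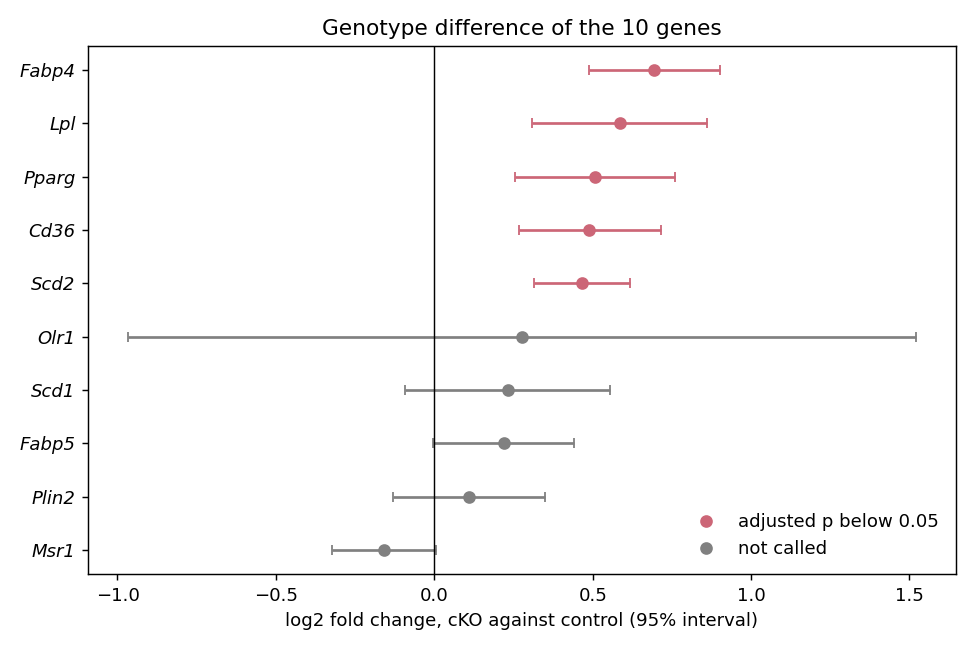
Points give the edgeR log2 fold change of cKO against control for each of the 10 genes, bars the 95% interval, and red marks an adjusted p below 0.05. Fabp4 has the largest point estimate at 0.69, the intervals of the 5 called genes overlap one another, and Olr1 has the widest interval, from -0.97 to 1.52.

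Levels were set beside each other per length with the FPKM values deposited by the authors. In control the order was Cd36 at 223 ± 30.2 FPKM, Lpl at 113 ± 16.1, Plin2 at 88.3 ± 9.94, Fabp5 at 79.3 ± 7.81, Msr1 at 41.1 ± 4.43, Scd2 at 12.5 ± 0.189, Pparg at 4.45 ± 0.628, Fabp4 at 4.12 ± 0.401, Scd1 at 2.87 ± 0.327 and Olr1 at 0.173 ± 0.146 FPKM. The neighbours Plin2 and Fabp5 overlapped over their libraries, and so did Pparg and Fabp4. In cKO the means were 316 ± 35.1 for Cd36, 172 ± 25.2 for Lpl, 17.4 ± 1.86 for Scd2, 6.73 ± 0.614 for Fabp4 and 6.36 ± 0.470 for Pparg. The importer and the lipase thus stood far above the receptor in both genotypes. This order depends on the length used. The divisor of the authors' FPKM is not stated. Counts and FPKM imply lengths 1.148 to 1.152 times the merged exons of all GENCODE transcripts of a member. For Olr1 this was not computed, and the source of the near-constant factor was not tested. Merged exons come to 4489 bases for Fabp4 against 896 bases for its longest coding transcript, and to 10478 against 4115 bases for Lpl. Per longest coding transcript, a scaling added after the data were seen, the control order was Lpl at 289 ± 41.0, Fabp5 at 286 ± 28.2, Cd36 at 235 ± 31.9, Plin2 at 164 ± 18.5, Msr1 at 71.7 ± 7.73 and Fabp4 at 20.7 ± 2.01, above Scd2 at 12.5 and Pparg at 6.18 ± 0.872. A length divisor is the same in every library, so the choice of it leaves fold changes untouched. A trend with length that differs between libraries does not cancel, and its removal moved log2 fold changes. That of Lpl went from 0.585 to 0.553 and that of Pparg from 0.507 to 0.56.

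**Figure D3:**
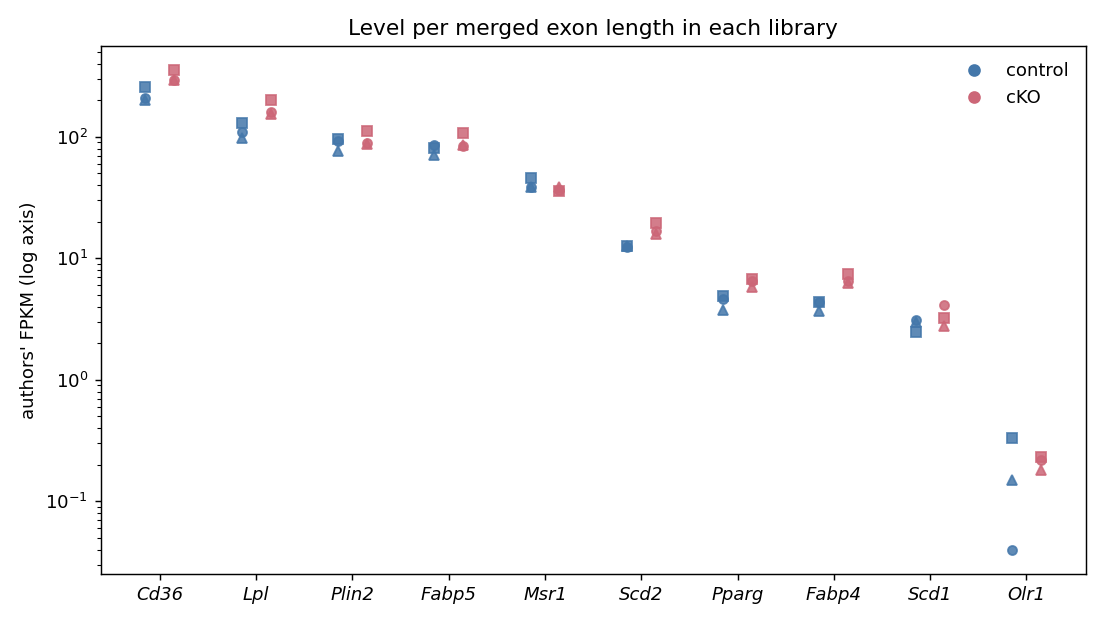
The authors' FPKM of each gene is drawn on a log axis for the 3 control libraries (blue) and 3 cKO libraries (red), with genes ordered by the control mean and marker shapes for replicate numbers. Cd36 stands highest at 223 FPKM in control and Olr1 lowest at 0.173 FPKM, with Pparg and Fabp4 side by side near the lower end.

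The mean log2 level of the 5 genes that rose, relative to the control mean, was 0.007, 0.14 and -0.148 in the control libraries and 0.519, 0.695 and 0.438 in the cKO libraries. In this mean, replicate 2 was the highest and replicate 3 the lowest in each genotype. Pparg, Cd36, Fabp4 and Lpl each had replicate 2 highest, and Cd36 had replicates 1 and 3 close together in both genotypes. Scd2 hardly varied among the controls, where replicate 1 was its lowest. In the same libraries the 10 osteoclast markers had means of -0.07, -0.164 and 0.234 in control and -0.442, -0.576 and -0.036 in cKO, the reverse order. None of these markers was called, and all 10 had negative differences, with a median of -0.388. The smallest p-value among them was that of Acp5 (log2 -0.56 ± 0.15 SE, edgeR adjusted p = 0.125). Only in Acp5 did all 3 cKO libraries lie below all 3 controls, an arrangement found for 11.4% of all genes tested. The 8 stromal and osteoblast markers had means of 0.119, 0.089 and -0.208 in control and 0.356, 0.726 and 0.139 in cKO. All 8 had positive differences (median 0.383) and none was called. Their summed level was 3446 to 4018 CPM in control and 3251 to 5198 CPM in cKO, most of it from Col1a1. The smallest p-values among the stromal markers belonged to the growth factor receptor genes Pdgfra (log2 0.77 ± 0.20 SE, adjusted p = 0.0649) and Pdgfrb (0.35 ± 0.09, adjusted p = 0.0768). In both, and in Runx2 (0.17 ± 0.08, adjusted p = 0.302), all 3 cKO libraries lay above all 3 controls. That arrangement was found for 11.1% of all genes tested, and the other stromal markers overlapped. In cKO replicate 3 the stromal sum was below every control, the stromal mean of 0.139 was above every control, and the osteoclast mean lay within the control range. The part of either marker list in the rises was not tested. In bulk RNA, fewer cells of a type and less RNA per cell cannot be told apart.

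**Figure D4:**
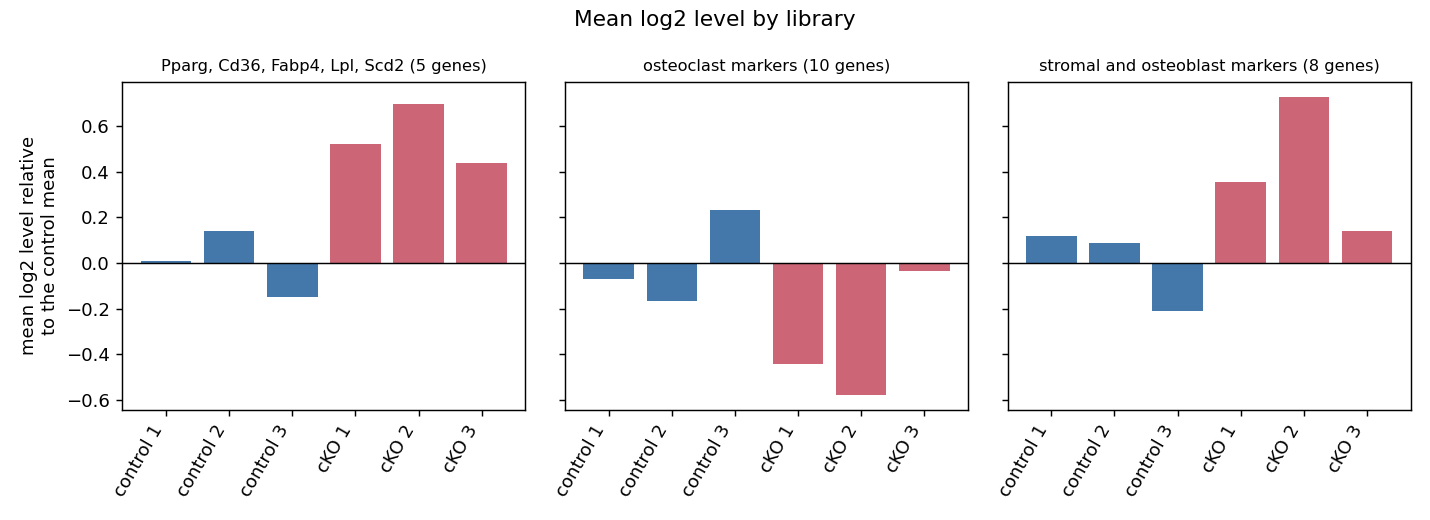
Bars give the mean log2 level of each gene set in each library relative to the control mean, with control in blue and cKO in red. The 5 called genes are highest in cKO replicate 2 at 0.695, where the osteoclast markers are lowest at -0.576 and the stromal markers highest at 0.726.

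Markers of other cell types were also measured. The adipocyte marker Plin1 had 0 CPM in 5 libraries and 0.0794 CPM in cKO replicate 1. The adipocyte list summed to 24.6 to 29.8 CPM in control and 24.4 to 28.3 CPM in cKO, nearly all of it from the lipase gene Lipe. Of the 8 adipocyte markers only Lipe was tested, and it was not called. Adipoq, Lep, Cfd, Cidec and Retn are not among the 26699 genes in the count tables, and Plin1 and Adrb3 did not pass the filter. Every gene in the count tables has at least 1 read over the 6 libraries. For the absent genes, a lack of reads and a lack of annotation therefore cannot be told apart. Endothelial markers summed to 4.29 to 6.07 and 4.39 to 4.78 CPM. Dendritic cell markers summed to 374 to 440 CPM in control and 582 to 642 CPM in cKO. In that list Itgax, an integrin that macrophages also express, rose (log2 0.67, edgeR adjusted p = 9.06e-04), while Flt3, Xcr1 and Cd209a were near 0. H2-Ab1 (log2 -0.16), Ccr7 (-0.90), Zbtb46 (0.33) and Clec9a (0.55) were not called. Neutrophil markers summed to 20.5 to 25.7 and 47.0 to 60.8 CPM, and S100a8, S100a9, Ngp and Ltf rose, with Elane near 0. Camp (log2 1.56, edgeR adjusted p = 0.403) and Mpo (log2 -0.82, adjusted p = 0.438) were not called. Neither exceeded 1.17 CPM in any library. The markers of B cells, T cells and erythroid cells together did not exceed 0.662 CPM. Both sums were highest in replicate 2 and lowest in replicate 3 of each genotype, the order of the mean of the 5 genes. The part of dendritic cells and neutrophils in the rises was not tested.

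The number of called genes in the set depended on single libraries. Fabp4 was called whichever library was left out, with adjusted p from 0.00351 to 0.0369. Scd2 lost its call without control replicate 1 (0.0548) or cKO replicate 1 (0.0543). Cd36 lost it without control replicate 1 (0.14), control replicate 3 (0.135), cKO replicate 1 (0.126) or cKO replicate 2 (0.0719). Lpl lost it without the same 4 libraries (0.164, 0.121, 0.137 and 0.0607), with no filter on low counts (0.0962) and with the length trend removed (0.134). Pparg kept its call only without cKO replicate 3 (0.0317) and lost it without any of the 3 controls (0.121, 0.0655 and 0.145), cKO replicate 1 (0.215) or cKO replicate 2 (0.105). All 5 kept a positive difference in each of these fits. DESeq2 called the same 5 genes and no other member, with adjusted p of 0.00504 for Pparg, 1.03e-05 for Cd36, 1.17e-07 for Fabp4, 0.0142 for Lpl and 1.72e-06 for Scd2.

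**Figure D5:**
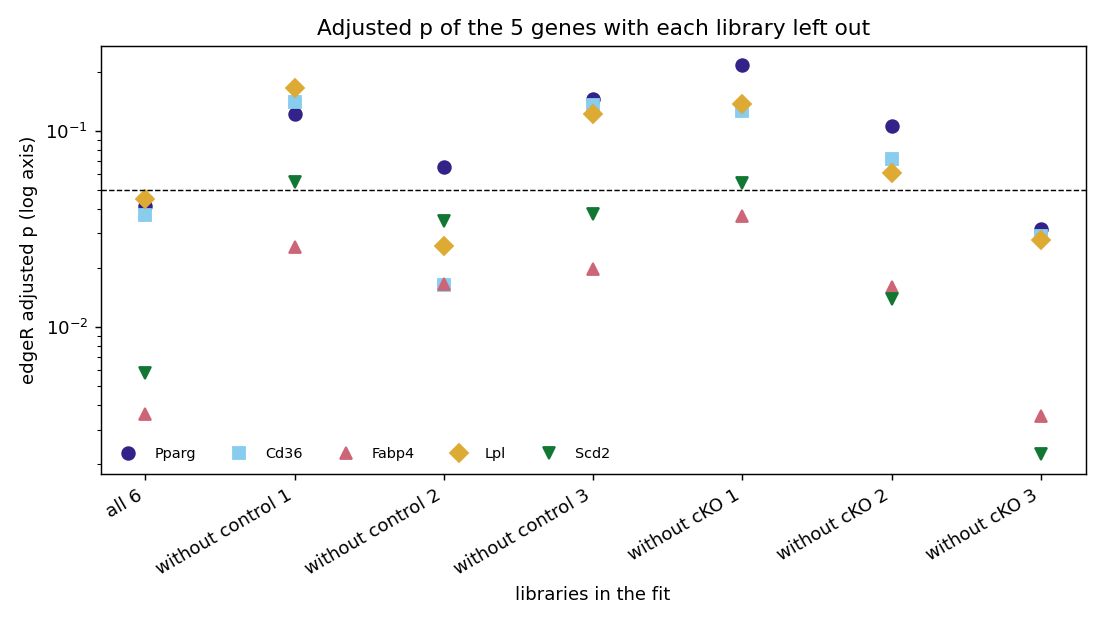
The edgeR adjusted p of the 5 genes called with all 6 libraries is drawn on a log axis for the whole set and with each library left out, with a dashed line at 0.05. Fabp4 stays below the line throughout, whereas Pparg is below it only with all libraries (0.0415) or without cKO replicate 3 (0.0317).

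Profiles over the 6 libraries were compared with those of Pparg and Cd36 by the root mean square difference of their centred log2 CPM, among 8619 named genes with a mean of at least 10 CPM. Nearest to Pparg were Cd300ld5 (0.042), Evl (0.065) and Trerf1 (0.067). Cd300ld5, of the CD300 family of myeloid receptors, rose from 50.1 to 73.2 CPM in cKO (log2 0.55, adjusted p = 0.00766). Nearest to Cd36 were Egr2 (0.060), a zinc finger transcription factor of myeloid cells, Clec7a (0.066) and Lpl (0.068). Lpl, itself one of the 10 genes, was thus among the 3 profiles nearest to Cd36, as a description over 6 libraries. The centred profiles include the genotype difference, so genes with similar rises come out near each other. The likeness is therefore no evidence apart from the calls.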

How the data were processed

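Polyadenylated RNA was sequenced from dUTP libraries, per the labels' protocols. Cutadapt 1.9 and the build mm10 are named in the submitters' processing notes. Not given in the sources used here are the aligner, the counter, the annotation and the strand setting. Overlapping genes and genes with shared sequence are therefore uncertain. The deposited files hold raw read counts per gene and, per the file headers, FPKM made by the authors.

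Counts were tested with edgeR 4.0.16 in R 4.3.3: filterByExpr (minimum count 10, minimum total 15), TMM scaling and a quasi-likelihood F test on 3 libraries per genotype, with Benjamini-Hochberg adjustment over all genes tested and a threshold of 0.05. The scripts were checked on simulated counts. SE is the log2 fold change over the square root of F. CPM levels are TMM-scaled, and FPKM served for levels between genes. Libraries of a genotype differed beyond sampling noise (chi-square 16.2 to 36.2 per degree of freedom), so none was counted as a repeat. Alternatives were DESeq2 1.42.0, RLE scaling, no filter, a filter at a mean of 1 CPM, a replicate block, removal of a length trend and leaving out each library.

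The members and gene lists were chosen with earlier results of these data known. All members are named. From each pathway list every called gene is named, up to 4 by smallest p, or otherwise the 2 genes with the smallest p, and marker lists are given by their summed levels; other genes named, such as Srebf1, Ppard, Ppara, Scd3, Scd4 and single markers, were added after their values were seen. Motifs were searched in RefSeq promoters of GRCm38.p6.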

Additional observations from a re-analysis of the deposited data

How the results depend on the processing

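The count of all genes called, 407, was 800 with DESeq2, 673 with a replicate block and 59 to 624 when 1 library was left out, lowest without cKO replicate 1 and highest without cKO replicate 3. Members called higher numbered 5 with DESeq2, RLE scaling, the filter at 1 CPM and the replicate block, 4 without a filter or with the length trend removed, and 1 to 5 when 1 library was left out. No member was called lower in any fit. The log2 fold change of Olr1 ran between -0.179 without control replicate 1 and 1.123 without replicate 2, and that of Plin2 from -0.002 (without cKO replicate 2) to 0.17 (without cKO replicate 3). The cause was not tested. The labels do not say whether same-numbered libraries of the genotypes form pairs. Deviations of same-numbered libraries correlated at -0.077, 0.05 and 0.262 over 9454 genes. Those of differently numbered libraries correlated at -0.222 to 0.147. These values do not settle whether the libraries are paired. Olr1, with 9 to 79 reads in a library, was dropped by the filter at 1 CPM and got no adjusted p from DESeq2.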

Other observations

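The deposited annotation assigns genes to the KEGG PPAR signalling pathway, which was looked at after the data were seen. Of 60 such genes in the tables, 50 were tested, and 8 were higher and 1 lower in cKO, beside 1.36% and 1.06% of all genes tested. The 8 are the 5 members that rose and 3 more. Among these 3, Slc27a6 is described above. Acox3, a peroxisomal acyl-CoA oxidase, rose from 152 to 187 CPM (log2 0.30 ± 0.06 SE, edgeR adjusted p = 0.0236). Cyp27a1, the mitochondrial sterol 27-hydroxylase, rose from 23.5 to 31.5 CPM (0.42 ± 0.10, adjusted p = 0.0448). The gene that fell is Me1. The median log2 fold change was 0.112 over the pathway and 0.04 without the members.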
